A study of Mus musculus with 6 samples.

Results

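UDP-glucuronosyltransferases (UGTs) of the liver were compared between WT and β-cateninΔ(ex3)/+ mice. Members were chosen by name, as the 10 genes Ugt1a1, Ugt1a6a, Ugt1a9, Ugt2a3, Ugt2b1, Ugt2b5, Ugt2b36, Ugt2b38, Ugt3a1 and Ugt3a2. They make up 10 of the 31950 gene rows of the expression table and 10 of its 20 rows with a name beginning in Ugt. All 10 passed the filter on low values, a mean over the livers of at least 0.5 FPKM (fragments per kilobase of transcript relative to all mapped fragments), and 13243 of all genes did.

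UGTs sit in the membrane of the endoplasmic reticulum and join a sugar, most often glucuronic acid taken from UDP-glucuronate, to lipophilic molecules such as bilirubin, bile acids, steroids, phenols and drugs, which can then leave in bile or urine. The Ugt1a enzymes come from 1 locus in which alternative first exons, each with its own promoter, are spliced to the same downstream exons, so that the enzymes differ in the substrate-binding part and share the rest. The Ugt2 and Ugt3a enzymes are encoded by separate genes in clusters. In liver, genes of drug metabolism including many UGTs are known to be arranged along the lobule, and β-catenin signalling is known to maintain the pericentral program.

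The data are RNA-seq of 3 WT and 3 β-cateninΔ(ex3)/+ livers, 1 library per liver, all labelled as liver of C57BL/6 mice at 8 weeks of age. In the β-cateninΔ(ex3)/+ genotype, 1 allele of Ctnnb1 lacks exon 3, whose loss stabilizes the β-catenin protein. The study uses this genotype name for livers in which tamoxifen induced a hepatocyte Cre under the albumin promoter, and it also describes a constitutive albumin Cre and a Cre adenovirus. Its RNA-seq methods do not restate the route, the treatment of the WT mice or the sex of the animals. Values are per gene, so the deleted exon cannot be read from them.

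Both groups carried the labels of adult liver, but their sex-linked and age-related marker genes differed as well. Of 5 kidney markers, Umod, Slc12a1 and Kap were listed at 0 in all 6 livers, Slc34a1 was at most 0.00867 FPKM, and Nphs1 had 4.19 to 6.75 FPKM with overlapping groups. Of 6 intestine markers 1 passed the filter on low values, Fabp2. It averaged 133 FPKM in WT and 20.8 FPKM in β-cateninΔ(ex3)/+ livers and was lower. The sum of 8 hepatocyte markers, most of it Alb, Apoa1 and Ttr, was 72220 to 75600 FPKM in WT and 38700 to 38990 FPKM in β-cateninΔ(ex3)/+ livers, and of the 8 genes Tat rose and Apoa1 and Ttr fell. Xist averaged 21.2 FPKM in WT and 0.00913 FPKM in β-cateninΔ(ex3)/+ livers, whereas the Y-linked Eif2s3y averaged 0.00563 and 9.51 FPKM. All 8 male-biased liver genes tested were higher in β-cateninΔ(ex3)/+ livers, and of 8 female-biased genes 5 were lower and 1, Sult3a1, was higher. Over all genes tested, 8.17% were higher and 4.52% lower by the limits given below. All 9 genes of the young liver tested were lower, their sum being 3945 to 4012 FPKM in WT and 8.85 to 10.2 FPKM in β-cateninΔ(ex3)/+ livers. Such transcripts, Afp and H19 among them, are known to be largely silenced in adult liver, so the WT libraries went against their labelled age. Markers of Kupffer cells summed to 268 to 286 FPKM in WT and 683 to 694 FPKM in β-cateninΔ(ex3)/+ livers, with 4 of 7 higher and 1, Marco, lower. The sums went from 92.4 to 95.0 FPKM in WT to 30.8 to 37.5 FPKM in β-cateninΔ(ex3)/+ livers for stellate cells (4 of 6 lower), from 68.6 to 69.9 to 49.3 to 50.6 FPKM for endothelial cells (1 of 6 lower) and from 1566 to 1710 to 799 to 825 FPKM for erythroid cells (3 of 6 lower). Of 4 cholangiocyte markers tested Spp1 was lower, and of 4 lymphocyte markers tested Cd79a was lower, with 0 higher in either list. The part of these cells in the UGT results was not tested. Genotype, sex-linked expression and age-related expression therefore cannot be told apart for any UGT below, and in bulk liver neither can fewer cells of a type and less RNA per cell. The depth, estimated from the steps between low FPKM values, was 24.4 to 24.7 M fragments in WT and 16.9 to 19.5 M in β-cateninΔ(ex3)/+ livers.

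Most UGTs were more abundant in β-cateninΔ(ex3)/+ livers. Genes with a limma adjusted p below 0.05 and a change of at least 2-fold were taken as differentially expressed. By this rule Ugt1a9, Ugt2a3, Ugt2b1 and Ugt2b38 rose, 4 of the 10 members against a background of 8.17% of all genes tested. Ugt1a1 fell, 1 of 10 against a background of 4.52%. The other 5 members did not pass. For 8 members every β-cateninΔ(ex3)/+ liver was above every WT liver, as for 43.0% of all genes tested, for Ugt1a1 every one was below, as for 23.0%, and for Ugt1a6a the groups overlapped. The median log2 fold change of the 10 members was 1.19, beside 0.14 over all genes tested. Without the 2-fold limit, 9 of the 10 had a limma adjusted p below 0.05, as did 57.0% of all genes tested.

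**Figure D1:**
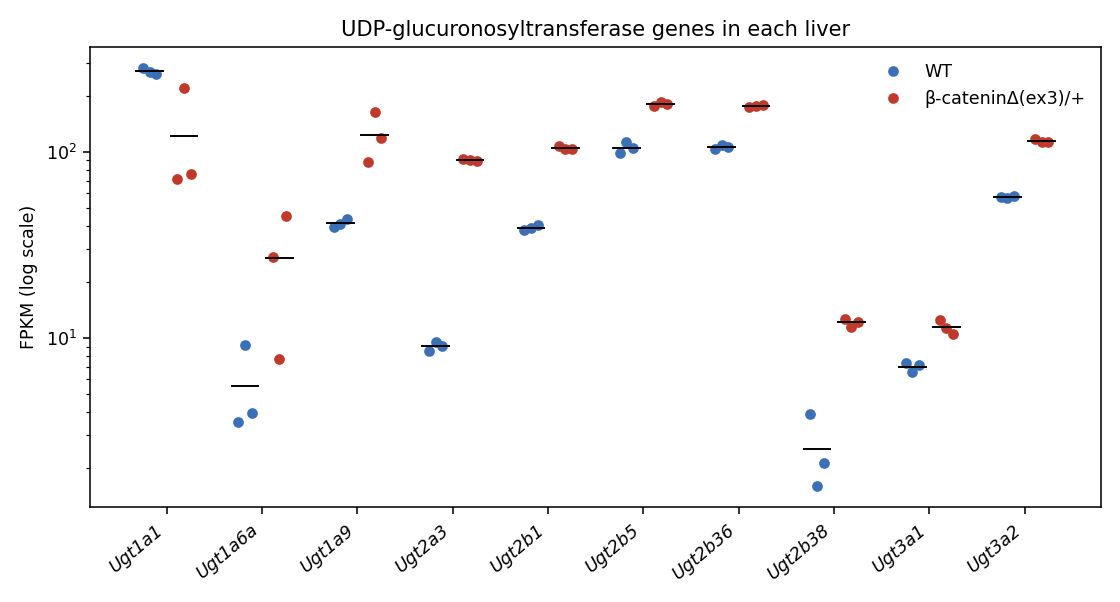
FPKM of the 10 UGT members (log axis) in each liver, blue for WT and red for β-cateninΔ(ex3)/+, with 3 points per genotype and a black line at their mean. The red points lie above the blue ones without overlap for 8 genes, Ugt1a1 is below, and Ugt1a1, Ugt1a6a and Ugt1a9 show the wide scatter among β-cateninΔ(ex3)/+ livers.

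The Ugt1a members are described first, since they include the enzyme for bilirubin. They lie on chromosome 1, plus strand (coordinates of the table, which for every Ugt row equal those of GENCODE M21 on GRCm38), Ugt1a1 at chr1:88211959-88218997, Ugt1a6a at chr1:88134809-88218997 and Ugt1a9 at chr1:88070800-88218997. They end in the same 4 exons, at chr1:88215044-88215175, chr1:88215795-88215882, chr1:88216138-88216357 and chr1:88218127-88218997, together 1311 bases or 57.1% to 59.9% of each member's transcript. A fragment from these exons cannot be given to 1 row from its sequence. The splice junction, where the enzymes' own exon meets the shared part, is printed for the Ugt1a rows above 5 FPKM on average in either genotype. It shows where the shared sequence begins and which rows also match just before it. Each line holds the last 24 bases of the own exon in lower case and the first 24 bases of the shared exon in capitals, from the GENCODE M21 transcripts, plus strand.
Ugt1a1: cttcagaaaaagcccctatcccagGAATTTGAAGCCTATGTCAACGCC
Ugt1a9: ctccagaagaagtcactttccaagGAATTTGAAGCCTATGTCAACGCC
Ugt1a6a: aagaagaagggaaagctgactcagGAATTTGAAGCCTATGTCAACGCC
Ugt1a6b: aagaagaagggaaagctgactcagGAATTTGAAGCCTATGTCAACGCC
Ugt1a5: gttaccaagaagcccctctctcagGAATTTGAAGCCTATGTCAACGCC
Ugt1a2: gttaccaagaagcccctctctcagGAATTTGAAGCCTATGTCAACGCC

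The capitals are the same in every line. In lower case, Ugt1a6a and Ugt1a6b are identical, and so are Ugt1a5 and Ugt1a2. Over the whole coding part upstream of the junction, Ugt1a6a and Ugt1a6b shared 97.0% of aligned bases, Ugt1a5 and Ugt1a2 81.6%, and Ugt1a1 and Ugt1a9 55.4%. Of all windows of 150 bases, the read length, 43.9% of those in Ugt1a1 and 42.5% of those in Ugt1a9 occurred in no other annotated gene's transcript. The share was 38.0% for Ugt1a2, 37.8% for Ugt1a5 and 33.8% for Ugt1a6b. For Ugt1a6a the share was 0%, since a transcript annotated to Ugt1a7c holds its whole sequence.

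Ugt1a1, the enzyme that conjugates bilirubin, was the most abundant UGT in every WT liver and, among β-cateninΔ(ex3)/+ livers, only in replicate 2. WT replicates 1 to 3 were at 281, 267 and 263 FPKM, and β-cateninΔ(ex3)/+ replicates 1 to 3 at 71.6, 219 and 75.9 FPKM. All β-cateninΔ(ex3)/+ values were below all WT values, but replicate 2 stayed close to WT while replicates 1 and 3 were far below. The log2 fold change was -1.34 (SE 0.43, limma adjusted p = 0.0378). This call depended on the filter, without which it was lost (limma adjusted p = 0.0699). It was lost on leaving out any of WT replicates 1 to 3 (limma adjusted p = 0.0923, 0.0868 and 0.0847). The log2 fold change then stayed at -1.31, -1.35 and -1.36. The call was also lost without β-cateninΔ(ex3)/+ replicate 1 (-1.06, limma adjusted p = 0.105) or β-cateninΔ(ex3)/+ replicate 3 (-1.10, limma adjusted p = 0.108). Without β-cateninΔ(ex3)/+ replicate 2 the log2 fold change was -1.86 (limma adjusted p = 1.48e-05).

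Ugt1a9, which conjugates phenols and bulkier drugs, had 39.3, 41.0 and 43.8 FPKM in WT and 88.5, 163 and 119 FPKM in β-cateninΔ(ex3)/+ livers. It rose in every β-cateninΔ(ex3)/+ liver, and most in replicate 2, the liver in which Ugt1a1 was highest. Its log2 fold change was 1.51 (SE 0.21, limma adjusted p = 0.00147).

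Ugt1a6a, an enzyme for small planar phenols, had 3.55, 9.14 and 3.94 FPKM in WT and 27.3, 7.72 and 45.3 FPKM in β-cateninΔ(ex3)/+ livers. The groups overlapped, because β-cateninΔ(ex3)/+ replicate 2 lay within the WT range. The log2 fold change of 1.88 had an SE of 0.66 and did not pass (limma adjusted p = 0.0512), though it did with a filter of 1 FPKM (limma adjusted p = 0.0498). Without β-cateninΔ(ex3)/+ replicate 2 it was 2.57 (limma adjusted p = 0.00641). Its neighbour Ugt1a6b, which is not a member, had 6.15, 4.66 and 18.8 FPKM in WT and 65.9, 9.71 and 58.0 FPKM in β-cateninΔ(ex3)/+ livers. Its log2 fold change was 1.91 (limma adjusted p = 0.0970), and without β-cateninΔ(ex3)/+ replicate 2 it was 2.76 (limma adjusted p = 0.0127). The low value in β-cateninΔ(ex3)/+ replicate 2 was thus common to both Ugt1a6 rows.

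Part of the Ugt1a signal of β-cateninΔ(ex3)/+ livers was listed under rows near 0 in WT. Ugt1a5 had at most 0.0368 FPKM in a WT liver and 124, 37.0 and 52.2 FPKM in β-cateninΔ(ex3)/+ livers, a log2 fold change of 5.95 (SE 0.42, limma adjusted p = 7.43e-05) that was 9.01 at a pseudocount of 0.1. Ugt1a2 was listed at 0 in each WT liver and had 43.1, 0.387 and 37.1 FPKM in β-cateninΔ(ex3)/+ livers, which did not pass (limma adjusted p = 0.0549). It did without β-cateninΔ(ex3)/+ replicate 2 (5.36, limma adjusted p = 3.41e-06) and at a pseudocount of 0.1 (6.53, limma adjusted p = 0.0210). Ugt1a7c and Ugt1a10 were under the filter on low values, at no more than 2.35 FPKM in a liver, and Ugt1a8 was listed at 0 in all 6 livers.

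Summed over the 9 Ugt1a rows, the locus was steadier than its rows. The sums were 330, 322 and 330 FPKM in WT and 421, 438 and 390 FPKM in β-cateninΔ(ex3)/+ livers. The coefficient of variation among β-cateninΔ(ex3)/+ livers was 5.77% for the sum, against 68.7% for Ugt1a1, 30.4% for Ugt1a9 and 70.2% for Ugt1a6a. The sum was 1.27-fold higher in β-cateninΔ(ex3)/+ livers, and with the 9 rows replaced by it before the model was fitted, an alternative chosen after seeing the data, the log2 fold change was 0.35 (SE 0.046, limma adjusted p = 0.00120), which is under 2-fold. The 3 members alone summed to 317 ± 6.35 FPKM (SD, n = 3) in WT livers and 272 ± 105 FPKM (SD, n = 3) in β-cateninΔ(ex3)/+ livers. The β-cateninΔ(ex3)/+ replicates 1 to 3, at 187, 390 and 240 FPKM, lay on both sides of WT (two-sided exact permutation test, p = 0.4). The higher level of the locus was thus seen only with the other rows counted. Ugt1a1 took 79.8% to 85.1% of the summed Ugt1a FPKM in WT livers and 17.0%, 50.1% and 19.5% in β-cateninΔ(ex3)/+ replicates 1 to 3. Whether the differences in Ugt1a1, Ugt1a9, Ugt1a5, Ugt1a2 and both Ugt1a6 rows came from first-exon use or from how shared fragments were divided was not tested.

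**Figure D2:**
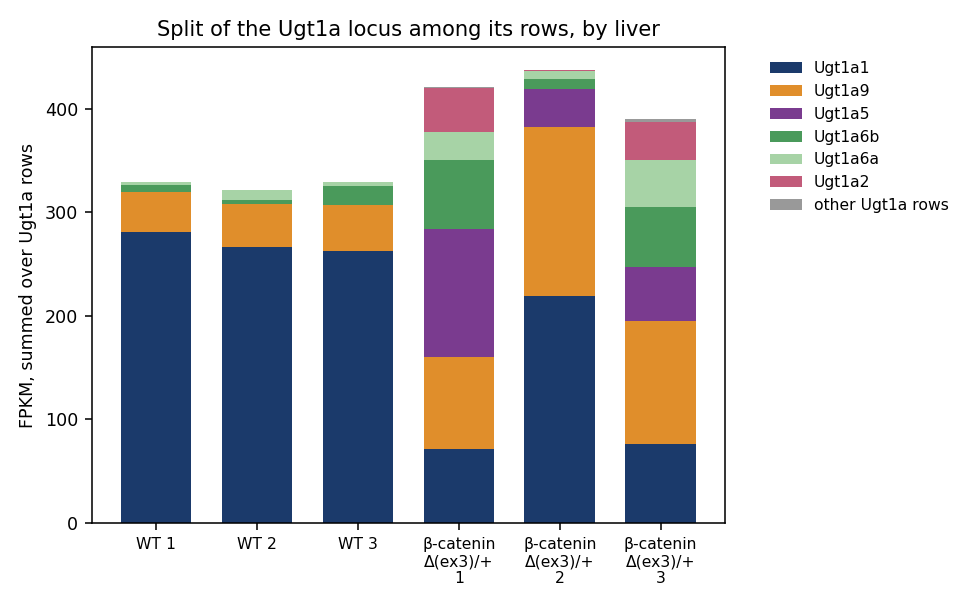
FPKM of the 9 Ugt1a rows stacked for each liver, 3 WT on the left and 3 β-cateninΔ(ex3)/+ on the right, 1 colour per row and grey for the 3 rows with the least signal. The bars reach 322 to 330 FPKM in WT and 390 to 438 FPKM in β-cateninΔ(ex3)/+ livers, with Ugt1a1 filling most of each WT bar and 5 to 6 rows sharing each β-cateninΔ(ex3)/+ bar.

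The Ugt2 members, enzymes known for steroids, bile acids and drugs, were all higher in every β-cateninΔ(ex3)/+ liver, and apart from Ugt2b38 in WT their replicates lay close together. They lie on chromosome 5, minus strand. Ugt2a3 (chr5:87324972-87337195), whose human counterpart is known to conjugate bile acids, showed the largest change of the 10 members. It had 8.47, 9.56 and 9.04 FPKM in WT and 91.1, 90.8 and 89.3 FPKM in β-cateninΔ(ex3)/+ livers. No other member was so uniform among β-cateninΔ(ex3)/+ livers, with a coefficient of variation of 1.10%. The ratio of the means was 10.02, and the log2 fold change 3.19 (SE 0.050, limma adjusted p = 1.40e-07).

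Ugt2b1 (chr5:86916638-86926530) had 37.8, 38.9 and 40.6 FPKM in WT and 107, 103 and 104 FPKM in β-cateninΔ(ex3)/+ livers. It rose with a log2 fold change of 1.40 (SE 0.039, limma adjusted p = 1.42e-06). The gap between the genotypes was many times the spread within either of them.

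Ugt2b38 (chr5:87409942-87424203) was the least abundant member in WT, with 3.91, 1.60 and 2.14 FPKM, and had 12.6, 11.5 and 12.2 FPKM in β-cateninΔ(ex3)/+ livers. Its log2 fold change was 1.94 (SE 0.23, limma adjusted p = 0.000704). An estimated 74 to 183 fragments stood behind each WT value, the thinnest of any member. Its coding sequence shared 97.0% of aligned bases with Ugt2b5, which was far more abundant, and 80.8% of its windows of 150 bases were its own, so its level depends in part on how fragments common to both were divided.

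Ugt2b5 (chr5:87124960-87140318) had 99.0, 112 and 104 FPKM in WT and 175, 185 and 180 FPKM in β-cateninΔ(ex3)/+ livers. Ugt2b36 (chr5:87065927-87092555) had 104, 109 and 107 FPKM in WT and 174, 176 and 178 FPKM in β-cateninΔ(ex3)/+ livers. Both were higher in all 3 β-cateninΔ(ex3)/+ livers, with log2 fold changes of 0.77 (SE 0.053, limma adjusted p = 6.59e-05) and 0.72 (SE 0.031, limma adjusted p = 8.43e-06), and both missed the 2-fold limit. By their means these were the most abundant UGTs in β-cateninΔ(ex3)/+ livers, with ranges that overlapped each other and lay within that of Ugt1a1.

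Among Ugt2 rows that are not members, Ugt2b37 rose, from 0.450, 0.189 and 0.387 FPKM in WT to 5.88, 6.09 and 5.91 FPKM in β-cateninΔ(ex3)/+ livers (log2 fold change 2.38, limma adjusted p = 4.56e-06, and 3.83 at a pseudocount of 0.1). Ugt2b35 had a log2 fold change of 0.67 (limma adjusted p = 0.000113), under 2-fold. Ugt2b34 differed least of the Ugt2 rows, at 49.7 ± 0.570 FPKM (SD, n = 3) in WT livers and 58.0 ± 0.573 FPKM (SD, n = 3) in β-cateninΔ(ex3)/+ livers, a log2 fold change of 0.22 that became -0.055 after quantile normalization. Of the 10 Ugt rows that are not members, 6 were tested, and Ugt1a5 and Ugt2b37 were the 2 that rose. Without β-cateninΔ(ex3)/+ replicate 2 there were 4, with Ugt1a2 and Ugt1a6b added. Ugt8a, which makes galactolipids of myelin, was under the filter on low values.

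The Ugt3a members lie side by side on chromosome 15, plus strand, share 93.2% of aligned coding bases, and belong to a family whose characterised human enzymes use UDP-sugars other than UDP-glucuronate. Ugt3a2 (chr15:9335550-9370955) had 57.1, 56.6 and 58.0 FPKM in WT and 117, 113 and 113 FPKM in β-cateninΔ(ex3)/+ livers. Its ratio of means was 1.99 and its log2 fold change 0.98 (SE 0.031, limma adjusted p = 2.52e-06), which was just short of the 2-fold limit. Ugt3a1 (chr15:9276888-9315032) was less abundant, with 7.31, 6.59 and 7.14 FPKM in WT and 12.4, 11.4 and 10.6 FPKM in β-cateninΔ(ex3)/+ livers. Its log2 fold change was 0.63 (SE 0.072, limma adjusted p = 0.000575). Both were higher in every β-cateninΔ(ex3)/+ liver, and neither passed both limits.

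**Figure D3:**
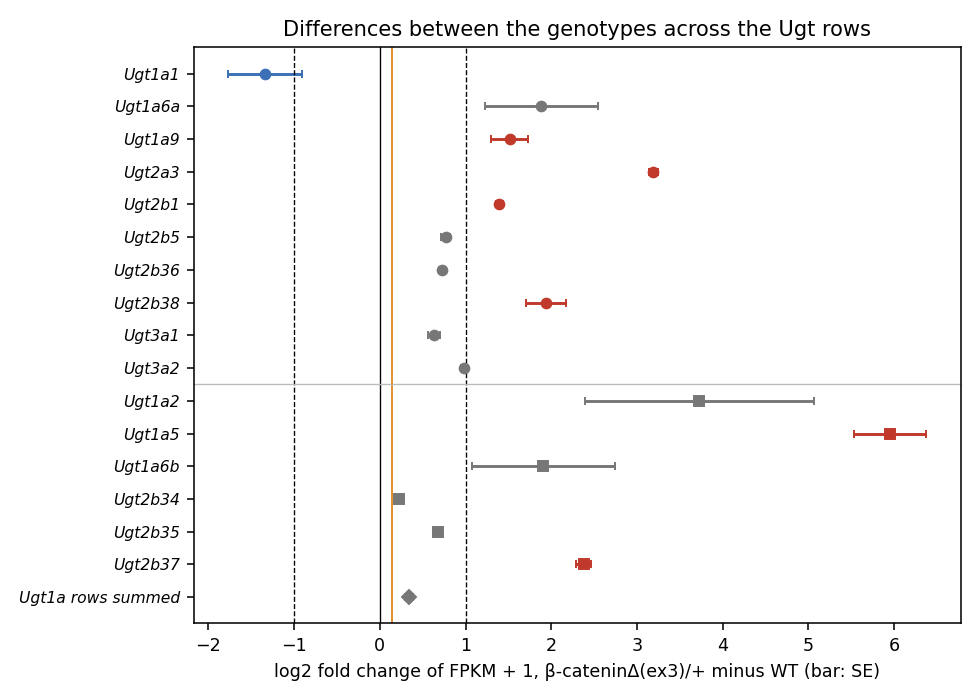
Log2 fold change of FPKM + 1 between β-cateninΔ(ex3)/+ and WT livers, with bars of 1 SE, for the 10 members (circles), the other 6 Ugt rows tested (squares) and the Ugt1a rows summed (diamond). Red marks a rise and blue a fall by the limits on adjusted p and fold change, grey neither, dashed lines 2-fold, and the orange line the median of all genes tested (0.14). Ugt1a1 stands alone on the left, and the widest bars belong to Ugt1a rows.

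FPKM are per length, so levels can be set beside each other within a genotype. For the Ugt1a members, and in part for Ugt2b38 and Ugt2b5, the order also depends on how shared fragments were divided. In WT livers Ugt1a1 came first at 270 ± 9.25 FPKM (SD, n = 3), followed by Ugt2b36 and Ugt2b5, whose ranges overlapped, then Ugt3a2, then Ugt1a9 and Ugt2b1, which also overlapped, and Ugt2a3. Ugt3a1, Ugt1a6a and Ugt2b38 came last, each overlapping its neighbour. In β-cateninΔ(ex3)/+ livers Ugt2b5 and Ugt2b36 led by their means, at 180.1 ± 4.91 and 176 ± 2.12 FPKM (SD, n = 3), although Ugt1a1 was above both in replicate 2. Ugt1a9, Ugt1a1 and Ugt3a2 followed, with overlapping ranges, then Ugt2b1 and Ugt2a3, and Ugt1a6a, Ugt2b38 and Ugt3a1 came last with overlapping ranges. Ugt2a3, at 90.4 FPKM, thus came within the range that Ugt1a1 covered in β-cateninΔ(ex3)/+ livers, 71.6 to 219 FPKM.

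Ugt1a rows held a smaller share of the summed Ugt FPKM in β-cateninΔ(ex3)/+ livers and Ugt2 rows a larger one. The Ugt1a sum was itself higher there, at a ratio of 1.27, so its share was smaller because other rows rose more. All 20 Ugt rows together had 720 to 730 FPKM in WT and 1180 to 1228 FPKM in β-cateninΔ(ex3)/+ livers, a ratio of 1.66. The 10 members summed to 643 ± 6.60 FPKM (SD, n = 3) in WT livers and 961 ± 107 FPKM (SD, n = 3) in β-cateninΔ(ex3)/+ livers, a ratio of 1.49, and the 7 members outside Ugt1a had a ratio of 2.11. Ugt1a rows held 45.0% ± 0.850 (SD, n = 3) of the summed Ugt FPKM in WT and 34.5% ± 1.31 (SD, n = 3) in β-cateninΔ(ex3)/+ livers. Ugt2 rows held 46.1% ± 1.01 and 55.1% ± 1.20, and Ugt3a rows 8.85% ± 0.157 and 10.4% ± 0.285 (SD, n = 3 each). For each of these 3 shares the genotypes did not overlap (two-sided exact permutation test, p = 0.1 for each). Within the 10 members, the share of Ugt1a1 fell by 29.8 percentage points and that of Ugt2a3 went from 1.40% to 9.48% (two-sided exact permutation test, p = 0.1 for each, the smallest that 3 livers against 3 allow). After Benjamini-Hochberg adjustment of this test over the 10 members, p was 0.167 for each.

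**Figure D4:**
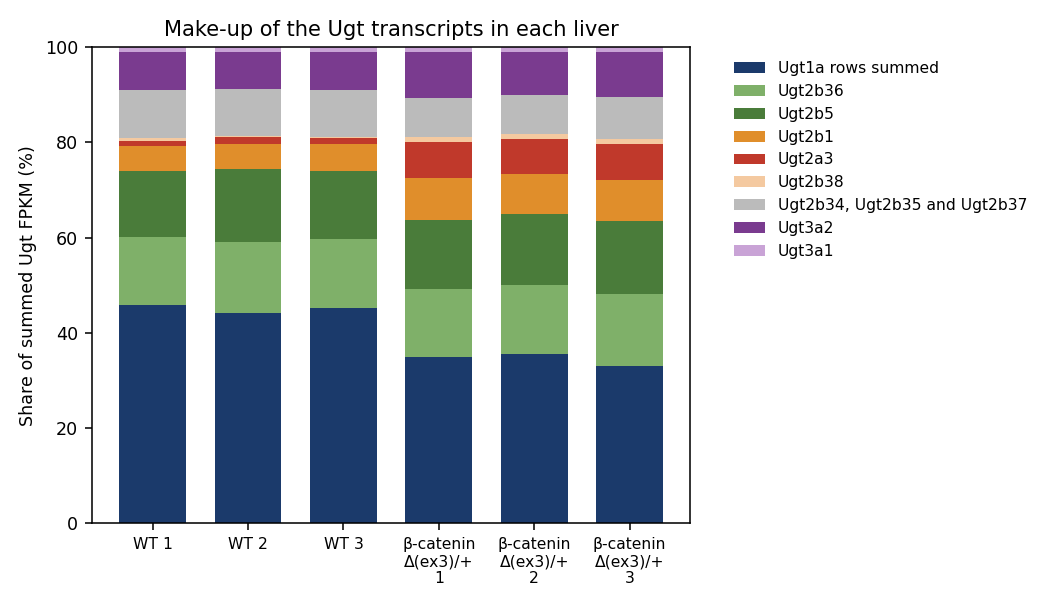
Share of the summed FPKM of all Ugt rows (%) in each liver, 3 WT on the left and 3 β-cateninΔ(ex3)/+ on the right, with the Ugt1a rows summed in dark blue and the other genes in colours of their own. The Ugt1a part is 44.1% to 45.8% in WT and 33.1% to 35.6% in β-cateninΔ(ex3)/+ livers, and the red Ugt2a3 part widens.

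The 250 bases before the start of Ugt2a3 and of Ugt1a1, the members with the largest rise and the only fall, were read from RefSeq (GRCm38.p6) because the promoters of UGTs are where liver factors such as HNF1 are known to act. Of the 10 members, 9 matched an entry, Ugt3a2 being the exception. Capitals mark GTTAAT, the core of the HNF1 recognition sequence, or its reverse complement ATTAAC. Ugt2a3 lies at chr5:87337196-87337445, minus strand, and Ugt1a1 at chr1:88211709-88211958, plus strand.
Ugt2a3: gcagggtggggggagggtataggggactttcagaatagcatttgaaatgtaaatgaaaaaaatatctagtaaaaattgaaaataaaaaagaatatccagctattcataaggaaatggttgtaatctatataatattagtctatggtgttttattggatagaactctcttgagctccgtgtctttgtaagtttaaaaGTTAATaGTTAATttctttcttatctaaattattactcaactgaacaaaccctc
Ugt1a1: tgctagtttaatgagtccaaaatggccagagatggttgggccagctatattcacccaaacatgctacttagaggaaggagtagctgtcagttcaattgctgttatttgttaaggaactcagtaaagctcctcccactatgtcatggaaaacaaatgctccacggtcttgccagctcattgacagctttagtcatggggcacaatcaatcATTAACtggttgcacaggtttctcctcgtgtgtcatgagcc

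The Ugt2a3 promoter held GTTAAT in 2 copies, beginning 54 and 47 bases before the start, and that of Ugt1a1 held 1 copy on the other strand, 41 bases before it. Motifs were searched on both strands in windows from 250 bases before to 50 bases after the start. GTTAAT was found in 5 of 9 member promoters (Ugt1a1, Ugt1a6a, Ugt1a9, Ugt2a3 and Ugt3a1) and in 7.10% of 32851 promoters of the same length. The 250 bases before the RefSeq start of Ugt3a1, chr15:9279579-9279828, lie inside the gene as placed above (chr15:9276888-9315032), downstream of the start given there. The TCF/LEF motif CTTTGAA, through which β-catenin is known to act, was found in Ugt1a6a and Ugt2b36 and in 5.14% of all promoters. Its variant CTTTGAT was in 0 of 9 (3.73% of all), as was the core GCGTG of the aryl hydrocarbon receptor (32.4% of all). The 2 genes with the TCF/LEF motif did not pass both limits of the test. Ugt2b36 was higher in every β-cateninΔ(ex3)/+ liver but under 2-fold (log2 fold change 0.72, limma adjusted p = 8.43e-06). Ugt1a6a, at 1.88 with overlapping groups, missed the limit on adjusted p (limma adjusted p = 0.0512). The 4 members that rose had no such motif in this window. Whether the motif had a part in any UGT result was not tested. These matches describe letters, not binding.

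Genes around glucuronidation were read from 5 lists. Beside their counts, 8.17% of all genes tested rose and 4.52% fell. At any fold, 57.0% had a limma adjusted p below 0.05. Of 10 genes tested in a list around UDP-glucuronate supply, not all of which make it, Ugdh and Slc35b1 rose and 0 fell by limma. In this list 3 were lower at an unadjusted p below 0.05 (median log2 fold change 0.23). Ugdh, which oxidizes UDP-glucose to UDP-glucuronate, had 1.41, 1.54 and 1.39 FPKM in WT and 10.6, 10.9 and 9.47 FPKM in β-cateninΔ(ex3)/+ livers (log2 fold change 2.21, limma adjusted p = 2.28e-06). Slc35b1, a nucleotide carrier of the endoplasmic reticulum, had a log2 fold change of 1.67 (limma adjusted p = 4.52e-06). Ugp2, which makes UDP-glucose, lay in the other direction at -0.91, under 2-fold, and passed both limits without β-cateninΔ(ex3)/+ replicate 2 (-1.003, limma adjusted p = 0.00274). Pgm1, a phosphoglucomutase and the most abundant gene of the list, had a log2 fold change of 0.17.

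Of 8 carriers of glucuronides and other organic anions, Slco1a1, Slco2b1 and Abcc3 rose and 0 fell by limma, with 0 lower at an unadjusted p below 0.05 (median log2 fold change 0.57). Abcc3, which exports conjugates across the sinusoidal side towards blood, had 4.46, 4.14 and 4.59 FPKM in WT and 24.4, 22.3 and 24.3 FPKM in β-cateninΔ(ex3)/+ livers (log2 fold change 2.19, limma adjusted p = 1.20e-06). Abcc2, which exports them into bile and was named after its values were seen, had 22.4 ± 0.495 and 22.4 ± 0.249 FPKM (SD, n = 3 each). The uptake carriers Slco1a1, also among the male-biased genes above, and Slco2b1 had log2 fold changes of 4.29 and 3.84 (limma adjusted p = 1.38e-07 and 3.12e-07). Slco1b2, the most abundant carrier, had 69.6 ± 2.11 and 130.0 ± 2.37 FPKM (SD, n = 3 each), under 2-fold.

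Of 4 genes for cleavage of glucuronides or esters, 0 passed in either direction by limma (3 had lower and 1 higher values at an unadjusted and an adjusted p below 0.05). Ces1d, a carboxylesterase and the most abundant, had 250 ± 3.71 FPKM in WT and 137 ± 3.00 FPKM in β-cateninΔ(ex3)/+ livers (SD, n = 3 each; log2 fold change -0.86). The higher gene was Gusb, the β-glucuronidase, which averaged 4.85 FPKM in WT and 6.22 FPKM in β-cateninΔ(ex3)/+ livers (log2 fold change 0.30, limma adjusted p = 0.0063). Of 7 genes of bilirubin formation and binding, Hmox1, the heme oxygenase that opens the heme ring, fell from 42.0 ± 1.29 to 19.7 ± 1.70 FPKM (SD, n = 3 each; log2 fold change -1.06, limma adjusted p = 4.64e-05), and 0 rose by limma, with 3 higher at an unadjusted p below 0.05. Gsta2 missed the 2-fold limit at 0.97 and passed it without WT replicate 3 (1.08, limma adjusted p = 0.00306) or β-cateninΔ(ex3)/+ replicate 2 (1.10, limma adjusted p = 0.00181). Fabp1, the most abundant, had a log2 fold change of 0.082 (limma adjusted p = 0.0718).

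Of 13 transcription factors and partners known to act on UGT genes, Hnf4a rose, from 57.6 ± 0.953 to 125 ± 1.07 FPKM (SD, n = 3 each; log2 fold change 1.10, limma adjusted p = 1.24e-06), and 0 fell by limma, with 4 lower at an unadjusted p below 0.05. It had the highest mean over all 6 livers, although Cebpa, at 78.0 FPKM, was above it in WT, and was under 2-fold after median-ratio scaling (0.93) and quantile normalization (0.86). Foxa1 (0.97) passed without β-cateninΔ(ex3)/+ replicate 1 (1.02, limma adjusted p = 0.000226) and Keap1 (0.81) without WT replicate 3 (1.04, limma adjusted p = 0.000698). The other factors lay between -0.79 and 0.80, with a median of 0.33 for the list. A count of 1 in 13 is near the 8.17% of all genes tested that rose.

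**Figure D5:**
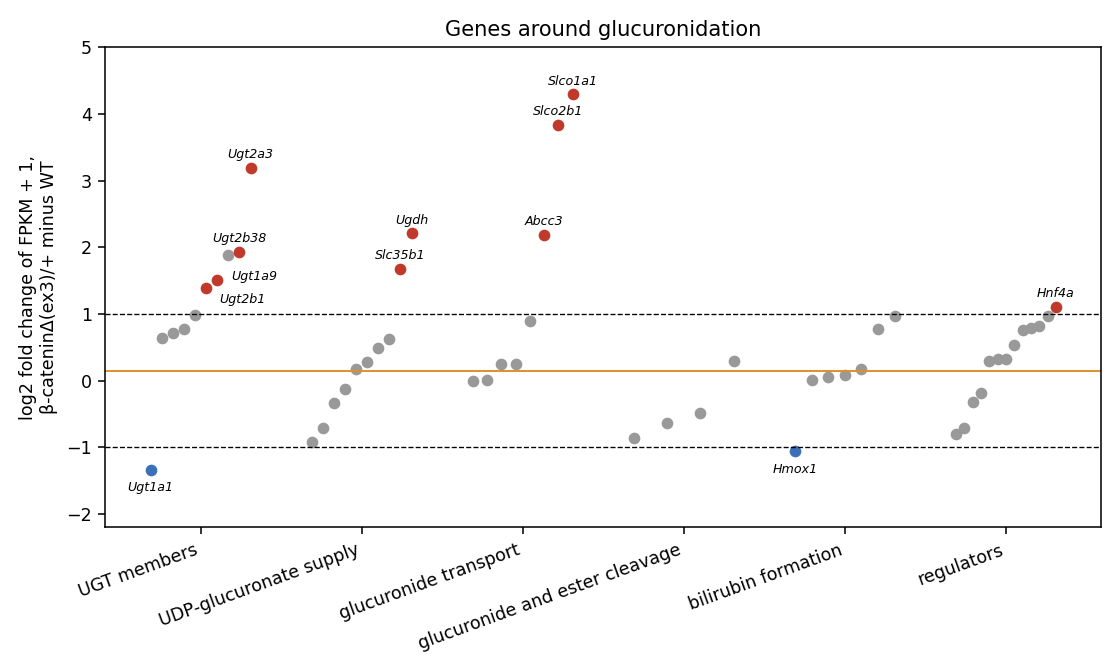
Log2 fold change of FPKM + 1 between β-cateninΔ(ex3)/+ and WT livers for each gene tested of the UGT members and 5 lists around glucuronidation, 1 point per gene, sorted within each list. Red and named points rose and blue and named points fell by the limits on adjusted p and fold change, grey points did neither, dashed lines mark 2-fold and the orange line the median of all genes tested (0.14). The tallest points are Slco1a1, Slco2b1 and Ugt2a3.

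In comparison, of 8 cytosolic sulfotransferases tested, which conjugate many of the same kinds of substrates, Sult1b1, Sult3a1 and Sult5a1 rose and Sult1c2 and Sult2a1 fell. Their median log2 fold change was -0.076, beside 1.19 for the UGT members and 0.14 for all genes tested. As a background, 8.17% of all genes tested rose and 4.52% fell. Of 10 pericentral genes 6 rose and 0 fell by limma (2 were lower at an unadjusted p below 0.05), Glul going from 103 to 626 FPKM. Of 10 periportal genes 4 rose and 2 fell. Genes of both zones thus differed between the genotypes, the periportal ones in both directions. Their part in the UGT results was not tested.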

How the data were processed

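RNA from 3 WT and 3 β-cateninΔ(ex3)/+ mouse livers was compared, grouped by the sample titles. In the 1 table used, the authors deposited an FPKM value for each gene in each liver, and 0 columns were left unused. The submitters' processing notes name cutadapt 1.9, HISAT2 2.0.4, StringTie 1.3.4d, DESeq2 and edgeR, and the build is not given in the sources used here. Assembly tools divide fragments from shared exons among transcripts, which can change the level of single Ugt1a rows.

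Log2(FPKM + 1) was fitted for 13243 genes, those whose mean was 0.5 FPKM or more, by limma 3.58.1 (lmFit, eBayes with trend, R 4.3.3), with Benjamini-Hochberg adjustment over all of them. A change was called at an adjusted p below 0.05 and 2-fold. Fold changes on this scale understate those of low genes. Count tests were not used, since FPKM are not counts. Depth was estimated from steps in low values of 8644 single-exon genes, with 6.43% to 10.1% of low values in the main step, so it is an estimate. The fit was tested on simulated data. Sequences were read with Biopython 1.88, and tables and figures were made with pandas 2.3.3, scipy 1.17.1, numpy 2.4.6 and matplotlib 3.10.9 under Python 3.11.15. No source says how the livers relate, and the p-values of the main fit treat them as independent. They set the difference between the groups against the spread within them, and do not tell genotype from sex-linked or age-related expression.

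The members and the gene lists were chosen with earlier results of these data known, and 1 gene of a list is not reported here. Named genes are all Ugt rows and, per list, the most abundant gene and the called gene that changed most in each direction, with others named where 5 or fewer were called. Ugp2, Gsta2, Foxa1, Keap1, Abcc2 and Gusb were named after their values were seen. Alternatives were a pseudocount of 0.1, quantile normalization, median-ratio scaling, no filter on low values, a filter of 1 FPKM, eBayes without trend, a replicate block, each liver left out, any fold change and, added after seeing the data, Ugt1a rows summed.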

Additional observations from a re-analysis of the deposited data

How the results depend on the processing

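Of 130 comparisons of single members with alternatives that kept the 2-fold limit, 122 kept their direction and side of the limits. The 8 others belonged to Ugt1a1 and Ugt1a6a. Without the 2-fold limit, Ugt2b5, Ugt2b36, Ugt3a1 and Ugt3a2 passed as well. Median-ratio scaling and quantile normalization moved the median over all genes, on the log2 scale, from 0.14 to 0.019 and -0.020, and the numbers of higher and lower genes from 1082 and 598 to 868 and 735, and 797 and 812. With a pseudocount of 0.1 they were 1706 and 999, and at any fold 4952 and 2599.

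The number of members that fell, 1, was 0 without a filter on low values and 0 with Ugt1a rows summed, and 0 to 1 with each liver left out. Members that rose, 4, were 8 at any fold. Ugt rows outside the members that rose, 2, were 4 at any fold, 1 with Ugt1a rows summed and 2 to 4 with each liver left out. Under both scalings 1 supply gene (Ugp2) and 1 cleavage gene (Ces1d) fell and 0 regulators rose. With a pseudocount of 0.1, 1 bilirubin gene (Gsta2) and 2 regulators rose. With each liver left out, 0 to 1 supply genes fell, 0 to 1 bilirubin genes rose and 1 to 2 regulators rose. At any fold, 5 supply genes rose and 3 fell, 1 cleavage gene rose and 3 fell, 6 carriers rose, 2 bilirubin genes rose, and 9 regulators rose and 4 fell. In that setting 57.0% of all genes tested passed. The cause was not tested, save that dropping the fold limit admits smaller changes and fewer livers give fewer values.

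The ratio of summed FPKM, 1.49, was 1.32 after median-ratio scaling, 1.66 over all Ugt rows and 2.11 without Ugt1a. With all Ugt rows as the denominator, the difference in share was 6.25 percentage points for Ugt2a3, 3.29 for Ugt2b1, 0.456 for Ugt2b5, 0.654 for Ugt2b38 and 1.59 for Ugt3a2, and reversed for Ugt2b36 (-0.0328) and Ugt3a1 (-0.0164). Ugt2b34 reversed to -0.055 after quantile normalization. The Ugt1a rows summed kept their direction, at 0.17 and 0.19 under the scalings and 0.31 to 0.39 with each liver left out.

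With the replicate number as a block, 4 members rose and 1 fell, Ugt1a1 at -1.34 (limma adjusted p = 0.0449), and 3 Ugt rows outside the members rose, Ugt1a6b among them. Deviations of same-numbered livers correlated at 0.0268, 0.0213 and -0.0054, while 4 of 6 livers correlated best with their own number. These values do not decide whether equal numbers mark pairs. The main fit took no pairs, since no source says how the livers relate. Fragments behind each value are estimates, fewest for Ugt2b38 in WT, which limits its precision.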

Other observations

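Within the Ugt1a locus, β-cateninΔ(ex3)/+ replicate 2 stood apart from replicates 1 and 3 in opposite directions for different rows, a pattern described after the values were seen. Ugt1a1 was 145 FPKM and Ugt1a9 59.4 FPKM above the mean of the other β-cateninΔ(ex3)/+ livers. Ugt1a6b, Ugt1a5, Ugt1a2 and Ugt1a6a lay below that mean, their differences being -52.2, -51.1, -39.7 and -28.6 FPKM. Over all 9 rows the difference was 32.0 FPKM, with 438 FPKM in replicate 2 and a mean of 405 FPKM in the others. The 7 members outside the locus summed to 689, 691 and 687 FPKM in β-cateninΔ(ex3)/+ replicates 1 to 3, so that this liver did not stand apart there. The estimated depth of replicate 2 was the lowest, 16.9 M fragments, and its part in the split was not tested.

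The Ugt2b37 row, which is not a member, had a higher ratio of means than any member, 17.4, beside 10.02 for Ugt2a3. Its level stayed low, at 5.96 ± 0.114 FPKM (SD, n = 3) in β-cateninΔ(ex3)/+ livers, and all of its windows of 150 bases were its own.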
